A study of Homo sapiens with 12 samples.

Results

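The genes described here are 10 markers by which neural stem cells and glioma stem cells are usually recognised: PROM1, FUT4, NES, SOX2, SOX9, BMI1, KLF4, MYC, MSI1 and POU5F1. They were picked by symbol and matched through their Ensembl identifiers. Each of the 10 had a row among the 20263 genes of the deposited table.

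Glioma stem cells are tumour cells that renew themselves, resist chemotherapy and share part of their gene expression with neural stem cells. PROM1 encodes CD133 and FUT4 makes the CD15 carbohydrate, both cell surface markers used to sort such cells. NES encodes the intermediate filament nestin, MSI1 the RNA-binding protein Musashi-1 and BMI1 a subunit of Polycomb repressive complex 1, while SOX2, SOX9, KLF4, MYC and POU5F1 (OCT4) are transcription factors. Hypoxia-inducible factors, whose α subunits HIF1α and HIF2α accumulate when oxygen is low, are known to raise several stem cell markers in glioma.

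Bulk mRNA sequencing was performed on U-87 MG, a long-established line of human glioblastoma cells, in 4 groups of 3 libraries. Cells carrying an empty vector (vector), cells with HIF1α knocked out (HIF1α-ko), cells with HIF2α knocked out (HIF2α-ko) and cells with both knocked out (HIF1α/2α-ko, the dual knockout) were all kept at 1% O2, so no group had normal oxygen. The record of the experiment gives 72 h of hypoxia, and the methods of the study give a shorter time for mRNA detection in general. Neither source says whether a knockout group was 1 clone or whether the libraries of a group came from separate cultures, so the p-values measure only the spread between these libraries, which may be technical.

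The unit is TPM, in which reads are corrected for gene length and every library is given the same sum. The columns summed to 999955 to 999982, so sequencing depth is unknown and no counting error or detection limit can be given. HIF1A TPM was 124 ± 23.5 in vector, 48.5 ± 9.35 with HIF1α knocked out, 86.8 ± 18.1 with HIF2α knocked out and 75.5 ± 11.9 in the dual knockout, and EPAS1, which encodes HIF2α, was 322 ± 31.5, 265 ± 20.2, 107 ± 17.0 and 117 ± 14.4 in the same order (mean ± SD, n = 3). Both mRNAs were below vector and not absent where they were targeted. HIF1A in the dual knockout was above HIF1α-ko (log2 difference 0.64, limma adjusted p = 0.0287) and was not called against HIF2α-ko, where HIF1A was not targeted (-0.19, limma adjusted p = 0.453). The 6 mesenchymal glioma markers, VIM and CD44 among them, were each at a mean of at least 1 TPM in every group, and their summed level was 16657 to 22578 TPM in vector, 15118 to 16165 with HIF1α knocked out, 11112 to 12842 with HIF2α knocked out and 9317 to 12817 in the dual knockout. Of the 7 neural and glial markers 3 had a mean of at least 1 TPM in each group. These were ALDH1L1 (17.4 to 65.8 TPM over the 12 libraries), SLC1A3 (2.32 to 11.7) and OLIG2 (0.884 to 19.2). The glial filament gene GFAP stayed between 0 and 0.639 TPM. Immune markers summed to at most 0.251 TPM, epithelial markers to at most 0.724, neuronal markers to 1.79 to 4.70 and endothelial markers to 1.15 to 7.08, and the 3 genes deleted in U-87 MG to at most 0.0138 TPM. Replicate 1 stood apart from the other 2 libraries in all 4 groups, most in vector. In vector its Pearson's r across genes was 0.968 and 0.966 with the other 2 libraries, against 0.989 between them. In the dual knockout these values were 0.975 and 0.977 against 0.992. They were 0.982 and 0.983 against 0.991 in HIF1α-ko, and 0.985 and 0.985 against 0.992 in HIF2α-ko. Several markers below were far from the other vector libraries in vector replicate 1.

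The markers covered a wide range of levels, and 4 of the 10 were below 1 TPM in nearly all libraries. MSI1 was listed at 0 in 11 of 12 libraries and at 0.0281 TPM in HIF1α-ko replicate 3. SOX2 was listed at 0 in 7 of 12 libraries and did not pass 0.0622 TPM in any. PROM1 was at 0.625, 0.0418 and 0.0927 TPM in vector replicates 1 to 3, at 0.103, 0.118 and 0.218 in the HIF1α-ko libraries, at 0.108, 0.0680 and 0.0195 in the HIF2α-ko libraries and at 0.0392, 0.0188 and 0.0934 in the dual knockout. The single high value was vector replicate 1, and without it the 4 groups of PROM1 lay within 0.0188 to 0.218 TPM. POU5F1 was at 0.365 to 1.23 TPM over the 12 libraries and at 1 TPM or more in 1 of them. POU5F1 lies in a gene-rich region where TCF19 on the opposite strand was at 2.04 to 9.47 TPM, and it has a near-identical copy, POU5F1B, at 0 to 0.0328 TPM. Whether counting used strand is not given in the sources used here, so reads of overlapping genes may not have been told apart. These 4 genes did not reach 1 TPM in 3 libraries and were left out of the main test. With no filter on low values, over 16881 genes, limma called 0 of the 4 in any comparison and 0 had an unadjusted p under 0.05, with the lowest adjusted p for POU5F1 in the dual knockout against HIF2α-ko (0.28, adjusted p = 0.134).

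**Figure D1:**
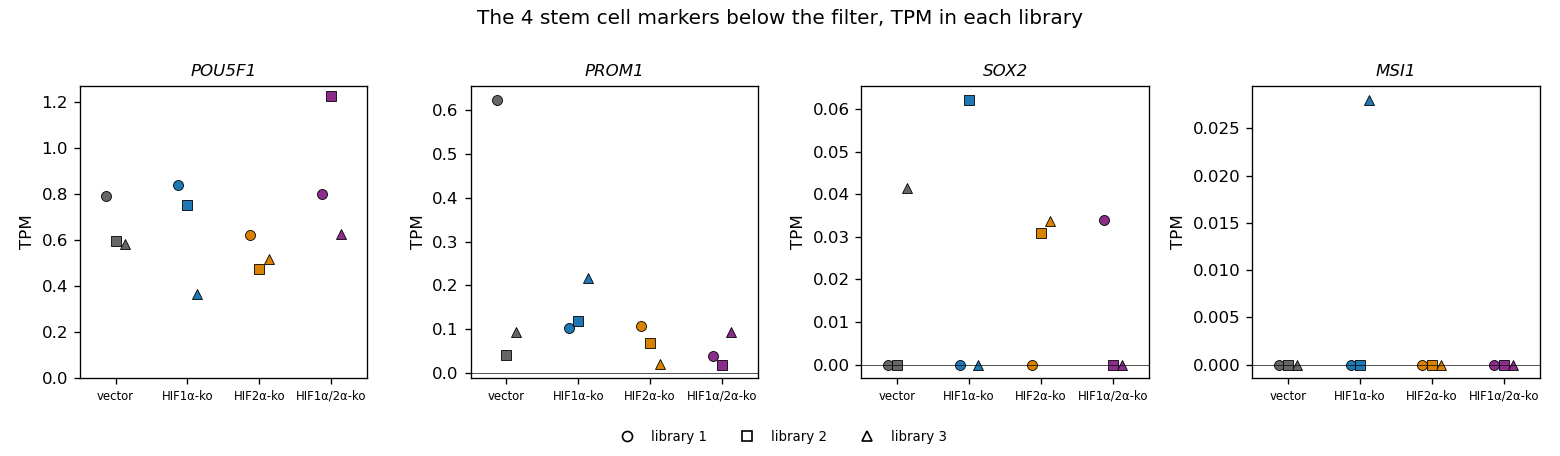
TPM (vertical axes, linear, a different range in each panel) of the 4 markers below the filter of the main test, in the 4 groups on the horizontal axes, with 1 point for each library and its shape for the replicate number. MSI1 sits at 0 in 11 of 12 libraries, SOX2 does not pass 0.0622 TPM, and the highest PROM1 value, 0.625 TPM, is vector replicate 1.

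The other 6 markers were above 0 in each library, although FUT4 overlapped POU5F1 in the dual knockout. By mean TPM per length, the order in vector was MYC (10.2), BMI1 (6.76), NES (4.17), SOX9 (3.11), KLF4 (1.57) and FUT4 (1.47). In vector the libraries of each neighbour in this order overlapped, except those of SOX9 and KLF4. In the dual knockout the order was MYC (17.6), BMI1 (10.2), KLF4 (3.39), NES (3.28), SOX9 (1.51) and FUT4 (1.15), with BMI1 apart from KLF4 and NES apart from SOX9. The highest of these means, that of MYC over all 12 libraries (12.1 TPM), lay above those of 71.9% of all genes in the table, and that of FUT4 (1.56 TPM) above those of 47.8%.

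**Figure D2:**
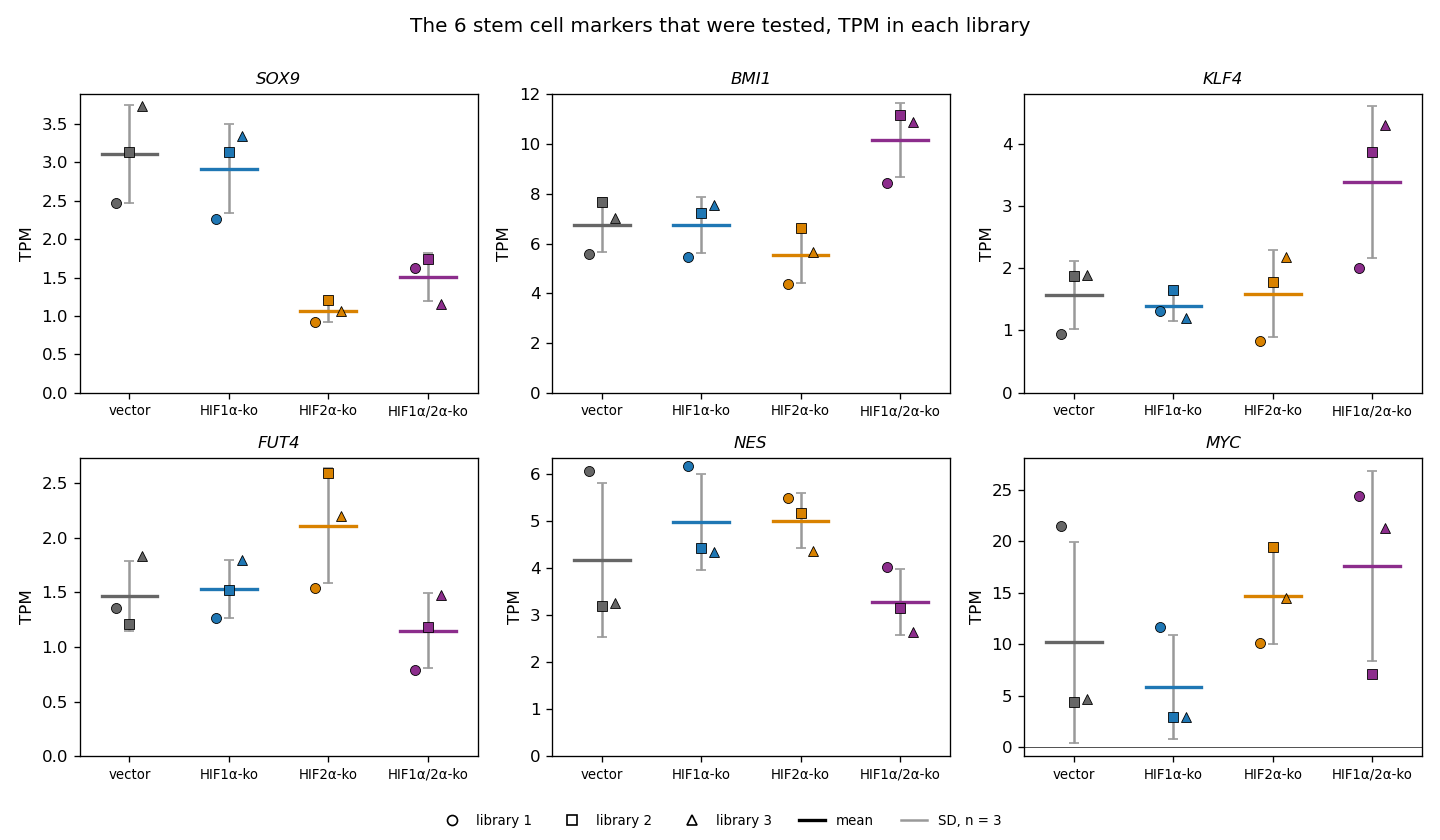
TPM (vertical axes, linear, from 0) of the 6 tested markers in the 4 groups on the horizontal axes. Points are libraries with the shape for the replicate number, thick lines are means and grey bars are SDs (n = 3). SOX9 is lower in HIF2α-ko and the dual knockout than in every vector library, BMI1 and KLF4 are higher in the dual knockout than in every vector library, and MYC spreads from 4.42 to 21.5 TPM within vector alone.

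SOX9, a transcription factor of neural stem cells and glia, was called in 4 of the 6 comparisons between groups, more than any other marker. SOX9 (ENSG00000125398, GRCh38 chromosome 17, from 72121020 to 72126420, plus strand, protein-coding) was at 2.46, 3.13 and 3.74 TPM in vector and at 2.258, 3.140 and 3.345 TPM in HIF1α-ko. It was at 0.921, 1.21 and 1.06 TPM in HIF2α-ko and at 1.62, 1.74 and 1.16 TPM in the dual knockout. All 6 libraries with HIF2α knocked out were therefore below the other 6. The mean was 2.92-fold lower in HIF2α-ko than in vector, with a log2 fold change of TPM + 1 of -0.98 (standard error 0.18, 95% interval -1.36 to -0.60, limma with Benjamini-Hochberg adjusted p = 0.00596). In the dual knockout it was 2.07-fold lower than in vector (log2 fold change -0.71, standard error 0.18, adjusted p = 0.00546). In HIF1α-ko the log2 fold change was -0.07 (95% interval -0.45 to 0.31, adjusted p = 0.792). Set against each other, the single knockouts differed by 0.91 with HIF1α-ko the higher (95% interval 0.53 to 1.29, adjusted p = 0.00336), and the dual knockout was below HIF1α-ko by a log2 difference of -0.64 (adjusted p = 0.0166). That last call was lost without HIF1α-ko replicate 2 (adjusted p = 0.0575), HIF1α-ko replicate 3 (adjusted p = 0.0704) or dual knockout replicate 3 (adjusted p = 0.0746), each from limma. The dual knockout and HIF2α-ko differed by 0.27 (95% interval -0.11 to 0.65, adjusted p = 0.220), with overlapping libraries. In bulk RNA, fewer cells that express SOX9 and less SOX9 mRNA per cell cannot be told apart.

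BMI1 and KLF4 were both called higher in the dual knockout against vector, and neither was called in a single knockout. BMI1 (ENSG00000168283, GRCh38 chromosome 10, from 22321211 to 22331484, plus strand), which is needed for the self-renewal of neural stem cells, was at 5.58, 7.68 and 7.01 TPM in vector, 5.45, 7.21 and 7.54 in the HIF1α-ko libraries, 4.38, 6.62 and 5.65 in the HIF2α-ko libraries and 8.45, 11.2 and 10.9 in the dual knockout. Each dual knockout library was thus above every library of the other 3 groups. KLF4 (ENSG00000136826, GRCh38 chromosome 9, from 107484852 to 107490482, minus strand), a zinc finger factor used in reprogramming, was at 0.938, 1.88 and 1.88 TPM in vector, 1.32, 1.64 and 1.19 in the HIF1α-ko libraries, 0.829, 1.78 and 2.18 in the HIF2α-ko libraries and 2.00, 3.86 and 4.30 in the dual knockout. Its dual knockout libraries were above all vector and HIF1α-ko libraries and overlapped HIF2α-ko, where replicate 3 was higher than dual knockout replicate 1.

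Against vector, the dual knockout had 1.50-fold more BMI1 (log2 fold change 0.53, standard error 0.19, 95% interval 0.11 to 0.94, limma with Benjamini-Hochberg adjusted p = 0.0389) and 2.16-fold more KLF4 (0.76, standard error 0.26, 95% interval 0.19 to 1.32, adjusted p = 0.0309). These calls lay near the threshold and were lost in several other fits. The median of all tested genes in this comparison was 0.21. With the libraries scaled by the median ratio, which brought that median to -0.00461, BMI1 stood at 0.30 (adjusted p = 0.148) and KLF4 at 0.57 (adjusted p = 0.0630), and neither was called. At unchanged estimates, both calls were also lost with no filter (limma adjusted p 0.0565 for BMI1 and 0.0534 for KLF4). The same held with the 2 groups alone (0.0767 and 0.0616). The BMI1 call was also lost without vector replicate 1 (adjusted p = 0.1096) or 3 (0.0668), HIF2α-ko replicate 3 (0.0538) or dual knockout replicate 2 (0.125) or 3 (0.116), and the KLF4 call without vector replicate 1 (0.1098) or dual knockout replicate 2 (0.102) or 3 (0.123), all from limma. Against HIF2α-ko, BMI1 was higher by 0.77 (95% interval 0.36 to 1.19, adjusted p = 0.00564), and this held in all 12 fits with 1 library left out but not with quantile normalization (adjusted p = 0.0502). KLF4 was higher than in HIF2α-ko by 0.75 (adjusted p = 0.0319), a call lost without HIF2α-ko replicate 1 (0.138) or dual knockout replicate 2 (0.104) or 3 (0.125), and also with median ratio scaling (0.55, adjusted p = 0.0761), quantile normalization (0.51, 0.0983), no filter (0.0542) or the 2 groups alone (0.0651). Against HIF1α-ko, KLF4 was higher by 0.84 (adjusted p = 0.0296), lost without HIF1α-ko replicate 1 (0.0740) or 3 (0.0917) or dual knockout replicate 2 (0.0988) or 3 (0.113), and BMI1 stood at 0.53 with an adjusted p of 0.0556 from limma. Libraries of the knockout groups with the same replicate number deviated together across genes, most in replicate 1, and a pairing of replicates 2 and 3 is not shown. With the replicate number as a block over these 3 groups, BMI1 passed the threshold against HIF1α-ko (limma adjusted p = 0.00362). It also passed there without vector replicate 1 (0.0391), HIF2α-ko replicate 1 (0.0487) or dual knockout replicate 1 (0.0304), with median ratio scaling (0.48, adjusted p = 0.0437), with no mean-variance trend (0.0472) and without replicate 1 of every group (0.00807). The read-through gene COMMD3-BMI1, which shares exons with BMI1, was listed at 0 to 2.61 TPM, and how reads were divided between them is not given in the sources used here.

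The promoters of the called members with an entry in the RefSeq table used here, BMI1, KLF4 and FUT4, are shown because all 3 hold the core letters that hypoxia-inducible factors recognise, ACGTG or GCGTG, which were searched on both strands from 250 bases before the start site to 50 after it. The sequences are from RefSeq on GRCh38.p14, 5′ to 3′ on the strand of the gene, at chr10:22320849-22321148 (plus), chr9:107489720-107490019 (minus) and chr11:94543671-94543970 (plus). Capitals mark the matches, which overlap each other in BMI1 at -70 and -69 and in KLF4 at -157 and -156, counted in bases from the start site.
BMI1: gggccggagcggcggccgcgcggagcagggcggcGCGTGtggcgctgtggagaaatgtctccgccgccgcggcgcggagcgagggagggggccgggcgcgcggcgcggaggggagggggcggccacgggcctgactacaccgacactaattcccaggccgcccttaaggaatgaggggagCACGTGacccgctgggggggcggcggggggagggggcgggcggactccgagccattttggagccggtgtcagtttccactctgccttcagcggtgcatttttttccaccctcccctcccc
KLF4: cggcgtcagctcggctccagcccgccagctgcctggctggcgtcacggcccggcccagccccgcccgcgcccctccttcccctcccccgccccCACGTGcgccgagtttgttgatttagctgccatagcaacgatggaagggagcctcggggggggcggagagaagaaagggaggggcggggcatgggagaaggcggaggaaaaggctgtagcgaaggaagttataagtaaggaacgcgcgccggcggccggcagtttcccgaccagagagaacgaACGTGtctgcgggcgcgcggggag
FUT4: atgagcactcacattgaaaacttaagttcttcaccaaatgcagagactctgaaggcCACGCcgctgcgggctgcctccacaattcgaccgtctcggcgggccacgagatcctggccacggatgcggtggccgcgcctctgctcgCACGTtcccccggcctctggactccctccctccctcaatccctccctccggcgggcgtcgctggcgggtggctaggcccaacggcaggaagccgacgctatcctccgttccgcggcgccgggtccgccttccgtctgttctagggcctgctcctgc
BMI1 and KLF4 had 3 matches each and FUT4 had 2. Such letters are common, since 17012 of 35116 promoters in the table (48.4%) and 5983 of 9439 promoters of tested genes (63.4%) hold them. Among the members with an entry, PROM1 also held them and NES and SOX2 did not, and the promoters of SOX9, MYC, MSI1 and POU5F1 were not analysed here. A match describes these letters in this window and is no measurement of binding.

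FUT4 and NES were not called against vector in any knockout. FUT4 (ENSG00000196371, GRCh38 chromosome 11, from 94543840 to 94549898, plus strand) was at 1.36, 1.21 and 1.83 TPM in vector, 1.27, 1.52 and 1.80 in the HIF1α-ko libraries, 1.54, 2.59 and 2.20 in the HIF2α-ko libraries and 0.787, 1.19 and 1.47 in the dual knockout. The HIF2α-ko libraries were the highest on average and the dual knockout libraries the lowest, and these groups did not overlap. FUT4 was lower in the dual knockout than in HIF2α-ko by a log2 difference of -0.53 (standard error 0.18, 95% interval -0.93 to -0.13, limma with Benjamini-Hochberg adjusted p = 0.0311). The call was lost without HIF2α-ko replicate 2 (adjusted p = 0.124) or 3 (0.0842), or dual knockout replicate 1 (0.0911) or 2 (0.0653). Against vector the log2 fold change of FUT4 was 0.33 in HIF2α-ko (95% interval -0.07 to 0.73), 0.04 in HIF1α-ko (-0.36 to 0.44) and -0.20 in the dual knockout (-0.60 to 0.19). PIWIL4, which overlaps FUT4 on the same strand, was listed at 0 to 2.54 TPM.

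NES (ENSG00000132688, GRCh38 chromosome 1, from 156668763 to 156677397, minus strand) was at 6.07, 3.19 and 3.26 TPM in vector, 6.17, 4.44 and 4.35 in the HIF1α-ko libraries, 5.50, 5.18 and 4.38 in the HIF2α-ko libraries and 4.04, 3.16 and 2.64 in the dual knockout. Replicate 1 was the highest library of NES in all 4 groups and the lowest library of BMI1 in all 4. Against vector the log2 fold change of NES was 0.24 in HIF1α-ko (95% interval -0.24 to 0.73), 0.26 in HIF2α-ko (-0.23 to 0.74) and -0.24 in the dual knockout (-0.73 to 0.24). Without vector replicate 1 these were 0.49, 0.51 and 0.00512, none of them called, and without replicate 1 of every group NES was called higher in HIF1α-ko (0.35, limma adjusted p = 0.0455) and in HIF2α-ko (0.45, limma adjusted p = 0.0279). The dual knockout libraries were all below those of both single knockouts, by -0.48 against HIF1α-ko (adjusted p = 0.127) and -0.50 against HIF2α-ko (adjusted p = 0.0852 from limma). With the replicate block over the 3 knockout groups, NES fell in the dual knockout against HIF1α-ko (adjusted p = 0.00838) and against HIF2α-ko (adjusted p = 0.00495 from limma). It was called without the block when vector replicate 1 was left out (0.0490 against HIF1α-ko and 0.0307 against HIF2α-ko), and against HIF2α-ko also without dual knockout replicate 1 (0.0480), with median ratio scaling (-0.74, 0.0244) and with quantile normalization (-0.79, 0.0205). Without replicate 1 of every group it was called against both (0.0188 and 0.00578).

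MYC, the transcription factor of growth and ribosome genes, had the highest mean over the 12 libraries of any marker, and its libraries of 1 group lay far apart. MYC (ENSG00000136997, GRCh38 chromosome 8, from 127735434 to 127741434, plus strand) was at 21.5, 4.42 and 4.67 TPM in vector, 11.7, 2.87 and 2.93 in the HIF1α-ko libraries, 10.1, 19.5 and 14.5 in the HIF2α-ko libraries and 24.4, 7.08 and 21.3 in the dual knockout. The highest library exceeded the lowest 4.86-fold in vector, 4.07-fold in HIF1α-ko and 3.45-fold in the dual knockout, and replicate 1 was the highest in each of these 3 groups. The log2 fold change against vector was -0.61 in HIF1α-ko (95% interval -1.94 to 0.71), 0.78 in HIF2α-ko (-0.55 to 2.11) and 0.91 in the dual knockout (-0.42 to 2.24), and none was called by limma. Without vector replicate 1 the change in the dual knockout was 1.58 (adjusted p = 0.0384), and in HIF1α-ko it was 0.06 (adjusted p = 0.943). Without replicate 1 of every group, MYC rose in HIF2α-ko (1.68, adjusted p = 0.0176) and in the dual knockout (1.27, adjusted p = 0.0282). In HIF2α-ko leaving out vector replicate 1 alone gave 1.46 with no call (adjusted p = 0.0929), so the call there needed replicate 1 to be dropped from every group. Between knockout groups, MYC in the dual knockout stood 1.52 above HIF1α-ko (95% interval 0.19 to 2.85, adjusted p = 0.0816), and with the replicate block over the 3 knockout groups it passed the threshold (adjusted p = 0.0409 from limma). It also passed without vector replicate 1 (0.0379), HIF1α-ko replicate 1 (0.0301) or dual knockout replicate 2 (0.0394), and against HIF2α-ko HIF1α-ko stood at -1.39 (adjusted p = 0.109), or -1.96 without HIF1α-ko replicate 1 (adjusted p = 0.0353).

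**Figure D3:**
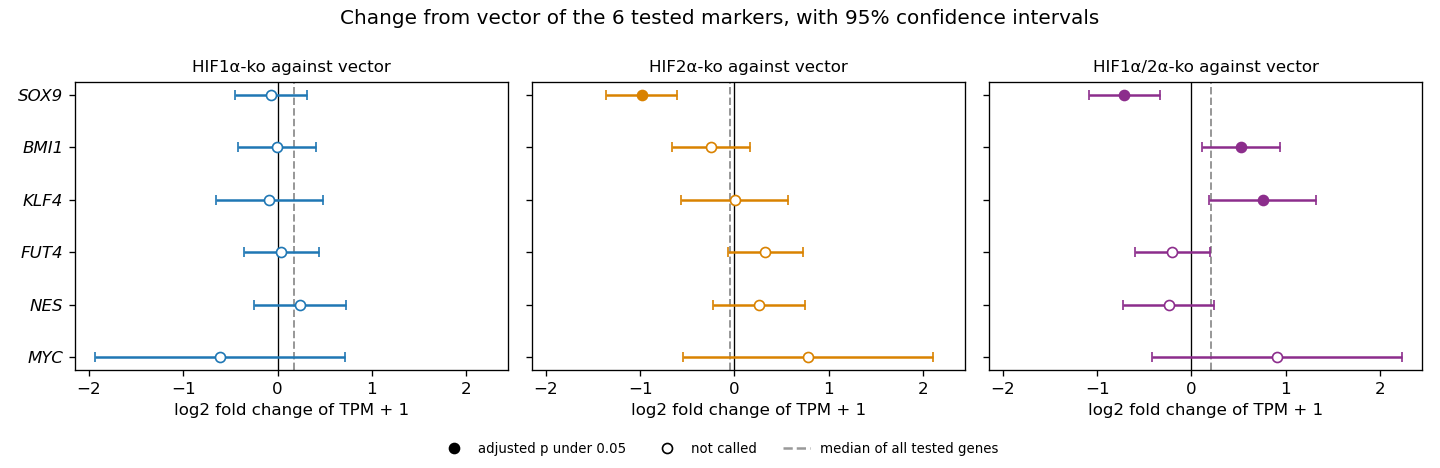
Log2 fold change of TPM + 1 against vector (horizontal axes) of the 6 tested markers (rows) in the 3 knockouts (panels). Points are limma estimates and bars are 95% confidence intervals, filled points have an adjusted p under 0.05, and the dashed line is the median of all tested genes (0.18, -0.04 and 0.21). SOX9 is called in HIF2α-ko and the dual knockout and BMI1 and KLF4 in the dual knockout, where the intervals of BMI1 and KLF4 include the dashed line.

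Beside these differences stand the shares of all genes that were called. Of the 6 tested markers, 0 were called in HIF1α-ko against vector, where 26.1% of the 11731 tested genes were called, and 0 had an unadjusted p under 0.05. In HIF2α-ko 1 marker was called, lower, against 11.0% of genes, and in the dual knockout 3 were called, 2 higher and 1 lower, against 46.7% of genes. The median log2 fold change of the 6 markers was -0.04, 0.13 and 0.16 in HIF1α-ko, HIF2α-ko and the dual knockout, and that of all tested genes was 0.18, -0.04 and 0.21. Under median ratio scaling the medians of all tested genes were 0.01, -0.000498 and -0.00461, and the share of called genes that were higher in the dual knockout went from 68.2% to 50.6%, in HIF1α-ko from 66.4% to 45.4% and in HIF2α-ko from 46.3% to 56.8%. These 3 comparisons share the vector libraries and are not independent. In the main fit no marker with an adjusted p under 0.05 passed a log2 fold change of TPM + 1 of 1 in size in any comparison. That scale understates changes of low genes, since the mean TPM of SOX9 was 2.92-fold lower in HIF2α-ko than in vector.

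Compared with HIF1α-ko, 2 of 6 markers were called in the dual knockout (KLF4 higher and SOX9 lower), against 28.3% of all genes. Compared with HIF2α-ko, 3 of 6 were called (BMI1 and KLF4 higher and FUT4 lower), against 46.4%. Between the single knockouts 1 of 6 was called (SOX9, higher in HIF1α-ko), against 25.1%. The interaction term, which asks whether the dual knockout differed from the sum of both single knockouts, was called for 0 of 6 markers by limma, against 20.6% of all genes, although 4 had an unadjusted p under 0.05. Its values were 0.78 for BMI1 (95% interval 0.19 to 1.37, adjusted p = 0.0590), 0.84 for KLF4 (0.04 to 1.64, adjusted p = 0.126), -0.74 for NES (-1.43 to -0.05, adjusted p = 0.116) and -0.57 for FUT4 (-1.13 to -0.01, adjusted p = 0.136). Without vector replicate 1 the term was called for BMI1 (adjusted p = 0.0276) and NES (0.0149), and without dual knockout replicate 1 for BMI1 (0.0329) and KLF4 (0.0349), all from limma. With the replicate number as a block over all 4 groups, it was called for BMI1 (adjusted p = 0.00750), NES (0.0258) and KLF4 (0.0320), although vector was not taken as paired with the knockout groups.

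**Figure D4:**
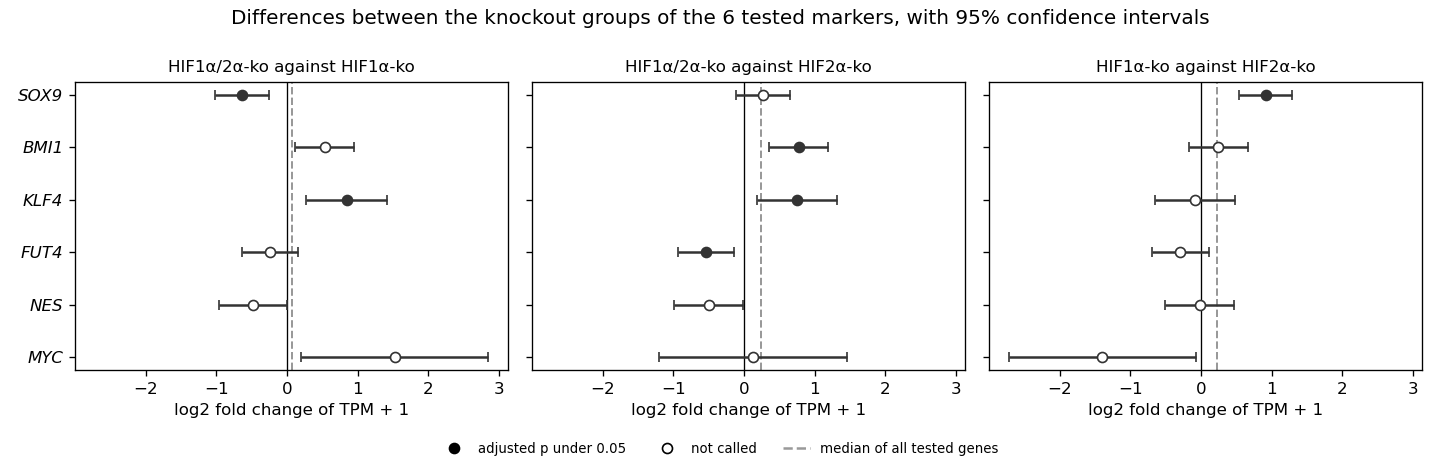
Log2 difference of TPM + 1 (horizontal axes) between knockout groups for the 6 tested markers (rows). Points are limma estimates, bars are 95% confidence intervals, filled points have an adjusted p under 0.05 and the dashed line is the median of all tested genes. SOX9 separates HIF1α-ko from HIF2α-ko (0.91), and BMI1 and KLF4 are higher in the dual knockout than in HIF2α-ko (0.77 and 0.75).

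Genes that work with the markers were followed in lists, and several lists, not all, held genes called in both directions. Among the 14 tested of 25 other glioma stem cell genes, 4 were higher and 1 lower with HIF1α knocked out, 2 higher and 1 lower with HIF2α knocked out and 7 higher and 0 lower in the dual knockout, where their median log2 fold change was 0.47 beside 0.21 for all tested genes. The called shares of all genes in these comparisons were 26.1%, 11.0% and 46.7%, and the 7 of 14 in the dual knockout were near the last of them. With median ratio scaling the HIF1α-ko count was 2 higher and 2 lower, and the number higher was 1 without vector replicate 3, 2 when any of vector replicate 2 and the HIF1α-ko replicates 2 and 3 was left out, and 6 without vector replicate 1. The largest rises in the dual knockout were those of ID3 (2.86), OLIG2 (2.31) and ID1 (1.94), with adjusted p of 1.3e-05, 0.000828 and 0.00401 from limma. ID1 and ID3 inhibit differentiation factors of the basic helix-loop-helix type, and OLIG2 is a transcription factor of glial progenitors. Both single knockouts also had more ID1 (1.85 without HIF1α and 1.73 without HIF2α) and more ID3 (0.83 and 1.98), although the HIF1α-ko call of ID3 (adjusted p = 0.0472) was lost with median ratio scaling (0.0696). ABCG2, the drug efflux pump that the study is about, was in this list and fell below the filter, at means of 0.349, 0.385, 0.640 and 0.534 TPM in vector, HIF1α-ko, HIF2α-ko and the dual knockout. With no filter, ABCG2 stood at 0.28 in HIF2α-ko against vector (unadjusted p = 0.0241, limma adjusted p = 0.151) and at 0.18 in the dual knockout (adjusted p = 0.244), and was not called.

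Most MYC targets were higher in the dual knockout, in which MYC itself was not called. Of 13 targets, all tested, 10 were higher and 0 lower in the dual knockout, where 46.7% of all genes were called, with a median of 0.85 beside 0.21 for all tested genes. The largest were ODC1 (2.72, the first enzyme of polyamine synthesis), EIF4E (2.20, the cap-binding translation factor) and CAD (1.64, an enzyme of pyrimidine synthesis), with adjusted p of 2.08e-05, 4.58e-05 and 0.000122 from limma. EIF4E was low in vector, at a mean of 0.657 TPM, and at 6.74 TPM in the dual knockout. With median ratio scaling 8 were higher and 1 lower. In HIF1α-ko 3 were higher and 2 lower, and in HIF2α-ko 0 were higher and 2 lower. Among 10 tested of 12 genes of the MYC network, 1 was higher and 1 lower in the dual knockout (median 0.16), namely MNT (0.59, adjusted p = 0.00306, lost with median ratio scaling at 0.0694) and MXI1 (-1.15, adjusted p = 0.00173 from limma), both MAX partners that oppose MYC. In HIF1α-ko 1 was higher and 1 lower, and in HIF2α-ko 0 were higher and 1 lower.

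The families of the markers themselves were mixed. Of 21 tested Polycomb subunits besides BMI1, 5 were higher and 3 lower with HIF1α knocked out, 1 higher and 2 lower with HIF2α knocked out and 3 higher and 2 lower in the dual knockout, with a median of 0.22 there. Those called in the dual knockout included the Polycomb repressive complex 1 subunits CBX6 (2.15) and RYBP (-1.55). Of 11 tested KLF genes besides KLF4, 3 were higher and 4 lower with HIF1α knocked out, 0 higher and 1 lower with HIF2α knocked out, and 4 higher and 1 lower in the dual knockout, with a median of 0.06, led by KLF16 (2.60), KLF2 (1.15) and KLF13 (0.91). The 1 lower KLF gene in HIF2α-ko became 5 without vector replicate 1, 4 without dual knockout replicate 1 and 0 without vector replicate 3, HIF1α-ko replicate 3 or any 1 HIF2α-ko library. The called shares of all genes given above apply to these counts too. Of 4 tested SOX genes besides SOX2 and SOX9, 1 was higher in HIF1α-ko (SOX13, 0.54, adjusted p = 0.0218, lost with median ratio scaling at 0.0936 and quantile normalization at 0.0747, and with 0 SOX genes called when replicate 2 or 3 of either group was left out) and 0 were called by limma in HIF2α-ko (1 at an unadjusted p under 0.05), and in the dual knockout SOX12 (1.00) and SOX13 (0.71) were higher and SOX15 (-1.24) lower. With 4 genes tested and 11.0% of all genes called in HIF2α-ko, these 0 calls do not set SOX9 apart from its family. SOX12 stood at 0.48 there (unadjusted p = 0.0499 from limma). DNMT3B, a DNA methyltransferase of pluripotent cells, was the only tested one of 10 other pluripotency genes and was higher in the dual knockout (1.66, adjusted p = 8.78e-05 from limma).

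Intermediate filament genes and the fucosyltransferase gene FUT11 were lower where they were called against vector. Of 9 intermediate filament genes besides NES, 3 were tested, and GFAP, INA, NEFL, NEFM and NEFH stayed below 1 TPM and were not. All 3 tested genes were lower in the dual knockout (median -0.83), where 46.7% of all genes were called. VIM fell by a log2 fold change of -0.96, DES by -0.83 and PRPH by -0.70. In HIF1α-ko 0 were called (1 at an unadjusted p under 0.05), and VIM was called in HIF2α-ko (-0.81, adjusted p = 0.00858 from limma). VIM is also 1 of the 6 mesenchymal markers whose sum is given above. FUT11, of the 2 tested relatives of PROM1 and FUT4, was lower in HIF1α-ko (-1.66, adjusted p = 4.28e-06) and in the dual knockout (-1.21) and stood at 0.33 in HIF2α-ko (adjusted p = 0.0797 from limma). Of 6 tested neural differentiation markers, 0 were higher and 2 lower with HIF1α knocked out, namely ENO2 (-1.05) and ALDH1L1 (-0.85). With HIF2α knocked out 0 were higher and 1 lower, and in the dual knockout 1 was higher and 1 lower. There the glutamate transporter SLC1A3 fell (-1.32, adjusted p = 0.000185) and the myelin enzyme CNP rose (0.82, adjusted p = 0.00907, lost with median ratio scaling at 0.0625). The called shares of all genes were 26.1%, 11.0% and 46.7% in the same order.

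**Figure D5:**
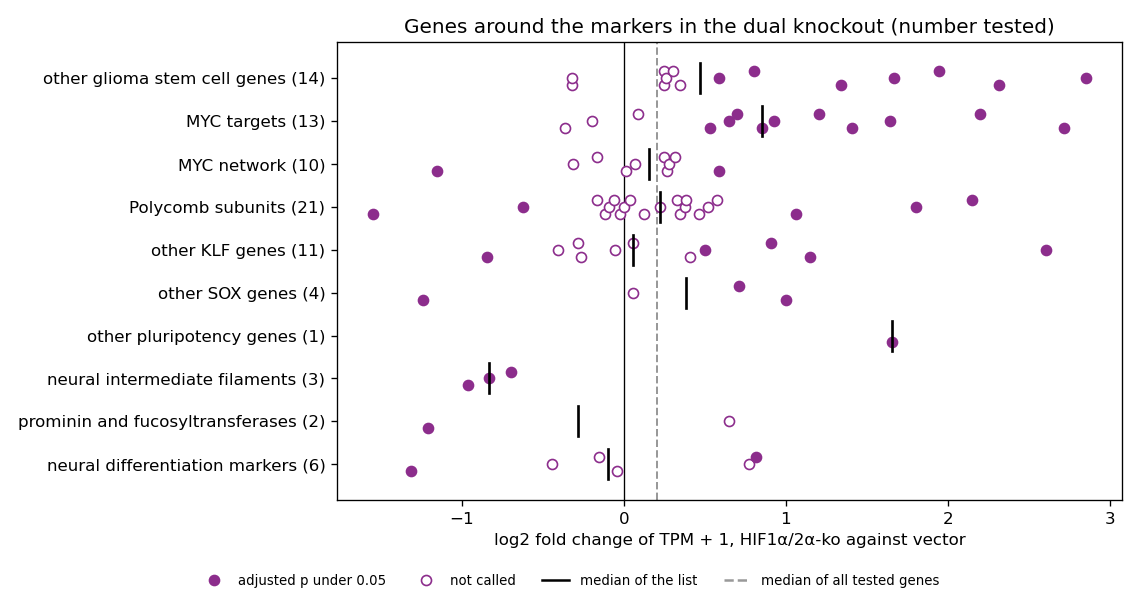
Log2 fold change of TPM + 1 in the dual knockout against vector (horizontal axis) of the tested genes of each list (rows, with the number tested). Filled points have an adjusted p under 0.05 from limma, black bars are list medians and the dashed line is the median of all tested genes (0.21). MYC targets lie mostly to the right of the line (median 0.85), and the 3 tested intermediate filament genes (VIM, DES and PRPH) lie to its left.

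Over the 12 libraries the markers followed different courses. By Pearson's r of log2(TPM + 1), which includes the differences between groups and is given as a description only, the genes most like SOX9 were RAB4A (0.964) and EPAS1 (0.925), the gene that was targeted in both groups where SOX9 was low. BMI1 was most like PAK2 (0.966) and ACAT1 (0.966), KLF4 like RRP1 (0.952) and RAP2B (0.948), and NES like CFB (0.970) and UBA7 (0.969). FUT4 was most like EED (0.908) and OPN3 (0.903), and MYC like INSIG1 (0.865) and KCTD5 (0.865). Among the markers, BMI1 and KLF4 varied together (0.855), NES varied against BMI1 (-0.821) and KLF4 (-0.811), and SOX9 varied against MYC (-0.711).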

How the data were processed

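Libraries from U-87 MG cells at 1% O2 were grouped by their labels, and vector was assigned to the 3 columns that bear no knockout code. The authors deposited TPM values for 20263 genes, 1 column a library. The submitters' processing notes name FastQC 0.11.2, Trimmomatic 0.36, HISAT2 2.0, bedtools 2.26.0 and the build GRCh38; the counter and annotation are not given in the sources used here. TPM keeps no depth, so precision rests on the 3 libraries of a group. Positions come from GENCODE 29.

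TPM was taken as log2(TPM + 1), and limma 3.58.1 was fitted to the 11731 genes that reached 1 TPM in 3 or more libraries (R 4.3.3; mean-variance trend), all 4 groups in 1 model and no covariate. Adjusted p-values are Benjamini-Hochberg within a comparison, called under 0.05. Fold changes on this scale understate changes of low genes. The fit was tested on simulated data. Figures used Python 3.11.15 and matplotlib 3.10.9.

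All 10 members are named, with the 3 called genes of largest absolute change in HIF1α/2α-ko from each list, HIF1A, EPAS1, ABCG2 and the 2 tested genes with the highest r to each tested member. One gene that the rule names is not reported here. The members and lists were chosen with earlier results of these data known. Genes outside this rule (ID1, ID3 and VIM in the single knockouts, ENO2, ALDH1L1 and untested intermediate filament genes) were named with their values in view. Alternatives for the lists were added after seeing the data. Same-numbered libraries of the 3 knockout groups deviated together from their group means (Pearson's r across genes 0.196 to 0.508). Replicate 1 gave 0.463 to 0.508, and replicates 2 and 3 gave 0.196 to 0.250. Deviations from a group mean balance out, so a shift of replicate 1 shared by the groups also moves replicates 2 and 3 together. A pairing of replicates 2 and 3 by number is therefore not shown by these values. On these values only, the 3 groups were taken as paired by number in fits with a replicate block, and the main fit had no block. With vector r was -0.0265 to 0.163, and no pairing was assumed.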

Additional observations from a re-analysis of the deposited data

How the results depend on the processing

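Of 866 alternative values of the 42 tested member differences, 757 kept their direction and their side of the threshold, 37 lost a call, 43 gained one and 29 turned direction, and the cause was not tested. In part of these fits the estimate could not change, so only the p-value could move and the direction was fixed. They were the fits with no filter, a mean TPM of at least 5, the 2 groups alone, no mean-variance trend or a replicate block. Leaving out a library of a group outside a comparison also kept the estimate. SOX9 kept its call in HIF2α-ko against vector in all 20 alternatives in which it was tested (log2 fold change -1.45 to -0.88, highest adjusted p 0.0321 from limma), in HIF1α/2α-ko against vector in all 20 (-0.9996 to -0.60, highest 0.0301) and between the single knockouts in all 21 (0.73 to 1.36). A mean TPM of at least 5 left only BMI1 and MYC to test.

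The number of members called in HIF1α-ko against vector was 1 without replicate 1 of every group (NES) and 0 in each fit with 1 library left out. In HIF2α-ko against vector, where 1 was called, it was 3 without replicate 1 of every group, 0 at a mean TPM of at least 5, and 1 in each fit with 1 library left out. In HIF1α/2α-ko against vector, where 3 were called, it was 1 with no filter, 1 at a mean TPM of at least 5, 1 under median ratio scaling, 1 under quantile normalization, 1 when limma was given the 2 groups alone, and 1 to 3 with 1 library left out. The highest number in any alternative there was 4, and without replicate 1 of every group MYC was called (1.27, limma adjusted p = 0.0282). Against HIF1α-ko it was 1 with no filter, 0 at a mean TPM of at least 5, 5 without replicate 1 of every group and 0 to 5 with 1 library left out. Against HIF2α-ko it was 1 at a mean TPM of at least 5, 1 with the 2 groups alone and 1 to 4 with 1 library left out. Between the single knockouts it was 0 at a mean TPM of at least 5, 2 with quantile normalization, 2 without replicate 1 of every group and 1 to 2 with 1 library left out. For the interaction it was 3 without replicate 1 of every group and 0 to 2 with 1 library left out. Asking in the main fit also for a log2 difference of TPM + 1 of 1 or more in size left 0 in every comparison, on a scale that understates changes of low genes.

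With the replicate block over all 4 groups, 5 members were called in HIF1α/2α-ko against HIF1α-ko and 3 in the interaction (NES -0.74, BMI1 0.78 and KLF4 0.84, adjusted p 0.0258, 0.00750 and 0.0320 from limma). The block on the 3 knockout groups also gave 5 against HIF1α-ko. The shares of all genes called in the alternative fits are not given here, so these counts cannot be set beside them. Among lists in HIF1α/2α-ko against vector, the alternatives gave 4 to 10 higher for the other glioma stem cell genes (7 reported), 8 to 10 for MYC targets (10), 2 to 8 for Polycomb subunits (3) and 3 to 5 for KLF genes (4). In HIF1α-ko they gave 1 to 7 higher glioma stem cell genes (4 reported), 0 to 5 MYC targets (3), 3 to 6 Polycomb subunits (5) and 0 to 3 SOX genes (1), and in HIF2α-ko 1 to 4 glioma stem cell genes (2), 0 to 2 MYC targets (0), 0 to 4 Polycomb subunits (1) and 0 to 5 lower KLF genes (1). The replicate block changed 7 of 42 verdicts on single members, all of them calls gained, and no other.

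Values that turned direction were not called. For FUT4 in HIF1α-ko they were -0.0784 under median ratio scaling, -0.17 under quantile normalization and -0.0373 to 0.14 with 1 library left out. With 1 library left out, HIF1α-ko against vector gave -0.19 to 0.0569 for SOX9, -0.12 to 0.12 for BMI1 (0.00582 without replicate 1 of every group), -0.28 to 0.00970 for KLF4 and -1.18 to 0.0610 for MYC. KLF4 in HIF2α-ko was -0.0132 at a pseudocount of 0.1 and -0.19 to 0.23 with 1 library left out, and NES in HIF1α/2α-ko was -0.37 to 0.00512. MYC in HIF1α/2α-ko against HIF2α-ko was -0.15 under median ratio scaling, -0.22 under quantile normalization, -0.41 without replicate 1 of every group and -0.18 to 0.65 with 1 library left out. Between the single knockouts, NES was -0.15 to 0.0584 and KLF4 was -0.32 to 0.0778 with 1 library left out.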
